A study of Mus musculus with 14 samples.

Results

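The genes described here encode the subunits of voltage-gated sodium and calcium channels. They were chosen by name, as every protein-coding gene of the deposited table whose symbol begins with Scn and a digit or with Cacna, Cacnb or Cacng, which gave 40 of the 56748 genes listed. Of these 40, 14 are sodium channel genes, 18 are calcium channel genes and 8 are genes of the gamma family. A filter on low counts kept 37 of them, and the remaining 3 (Scn4a, Cacna1f and Cacng1) are given by their counts alone.

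The brains came from mice at postnatal day 23 (P23) on the C57BL6/J background. The 7 Rik null animals (4 labelled female, 3 male) were homozygous for a null allele of 2310061I04Rik, a gene of undescribed function called Rik here, and the 7 WT animals (3 female, 4 male) were littermates. The null allele is a small deletion in the first intron of the gene. It arose by chance in a single embryonic stem cell clone while a floxed Traf7 allele was being made, and was then separated from that allele and backcrossed, so all Rik null animals descend from 1 event and may share linked sequence. Mice with this genotype are small, walk unsteadily and die shortly after this age, so that effects of the gene and of illness near death cannot be told apart. RNA was taken from 1 sagittal side of each brain, which pools all brain regions and cell types, and therefore fewer cells of a type and less RNA per cell cannot be told apart in any result below.

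Voltage-gated sodium channels open on depolarisation and carry the upstroke of the action potential. Each is a large pore protein, the alpha subunit, joined by small beta subunits that hold it in the membrane and bind adhesion molecules. Voltage-gated calcium channels turn electrical activity into calcium entry, which triggers transmitter release, dendritic signalling and gene transcription. Their pore protein (alpha1) travels with an intracellular beta subunit and an extracellular alpha2delta subunit, and most brain members of the gamma family instead escort AMPA-type glutamate receptors to the synapse.

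Libraries held 14.7 to 17.9 M counts. Levels are given as counts per M (CPM) on a library size scaled by the trimmed mean of M values (TMM), and log2 fold changes are Rik null over WT with a standard error (SE) and an adjusted p from edgeR's quasi-likelihood F test (two-sided, Benjamini-Hochberg over all 16882 genes tested, threshold 0.05). Rik itself was counted 18 to 56 times in a Rik null library and 483 to 687 times in a WT library, so each library matched its genotype label. Sex was taken from the labels. Rik null replicate 1 lay far out on the first principal component of all genes, at 54.5 where the other 6 of its genotype reached 23.8 at most. WT replicate 4 was as extreme on the third component (45.0, with the rest of WT at or below 3.05) and held more pituitary RNA than any other library, with 4181 counts of Pomc, the precursor of pituitary peptide hormones. Of all genes tested, 17.9% fell in Rik null brains. Of marker lists for the cell types of brain, all 7 genes of myelinating oligodendrocytes, 5 of 7 of astrocytes and 4 of 5 of microglia fell. Of the general neuronal markers 2 of 6 fell (Tubb3 and Map2), and the summed level of that list was 4928 to 5228 CPM in WT and 4462 to 4956 CPM in Rik null. The part of these differences in the results below was not tested.

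Of the 37 channel genes tested, 14 passed the test, which is 37.8% of them beside 34.4% of all genes tested. The 4 that rose in Rik null brains (10.8%, beside 16.5% of all genes) were Scn1a, Scn3a, Scn10a and Cacnb2. The 10 that fell (27.0%, beside 17.9% of all genes) were Scn2b, Scn4b, Cacna1i, all 4 alpha2delta genes and the gamma genes Cacng3, Cacng4 and Cacng8. The share called was near that of the whole table, so the number of calls is no result about channel genes, and the description turns on which subunits they were. The median log2 fold change of the tested channel genes was -0.02, beside -0.000503 for all genes tested. Most of the changes were under 2-fold: 2 genes, Scn10a and Cacna2d4, passed the test with a change of at least 2-fold (3.54% of all genes did so). The libraries of the 2 genotypes did not overlap for 7 of the 37 (18.9%, beside 12.4% of all genes). Without Rik null replicate 1 and WT replicate 4 together, 4 channel genes were higher and 8 lower, Cacna1i and Cacng8 being the calls lost.

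**Figure D1:**
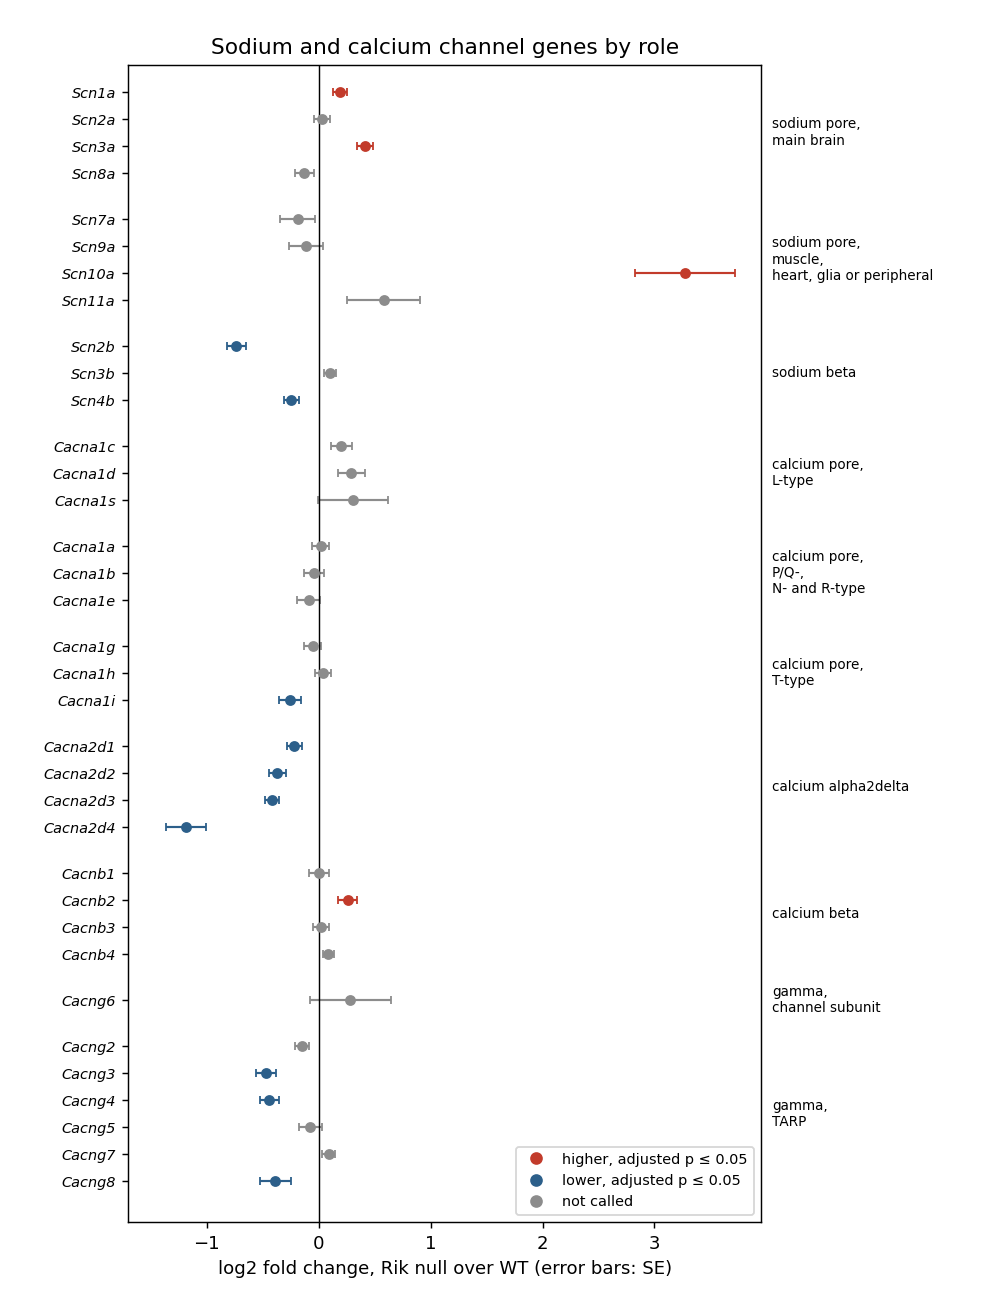
Log2 fold change of tested sodium and calcium channel genes, Rik null over WT, with error bars of 1 SE, ordered by subunit role. Red points rose and blue points fell at an adjusted p of 0.05 and grey points did not pass. All 4 alpha2delta genes lie to the left of 0, and Scn10a stands alone at 3.27.

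The pore genes of the main brain sodium channels were examined first. Scn1a, whose channel is prominent in fast-spiking inhibitory neurons, and Scn3a, whose channel is most abundant before and around birth, rose in Rik null brains. Scn2a and Scn8a, whose channels populate the axon initial segment of young and mature neurons, did not pass the test.

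Scn3a (ENSMUSG00000057182, GRCm38 chromosome 2, 65457118 to 65567627, minus strand) had a lowest, median and highest level of 52.4, 58.2 and 69.8 CPM in WT and 71.7, 78.0 and 90.2 CPM in Rik null. The highest WT library (replicate 6) stayed below the lowest Rik null library (replicate 5), so the genotypes did not overlap. This gave a log2 change of 0.42 (SE 0.07, adjusted p = 1.05e-04), or 1.33-fold. Scn1a (ENSMUSG00000064329, chromosome 2, 66270778 to 66440840, minus strand) had 223.6, 249.8 and 282.1 CPM in WT and 249.1, 293.3 and 313.1 CPM in Rik null. Here 5 of 7 Rik null libraries lay above every WT library, while replicate 5 was again the lowest and lay below the WT median. Its log2 fold change was 0.19 (SE 0.06, adjusted p = 0.0161), and in males alone it was 0.12 with an adjusted p of 0.358.

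Scn2a, the pore gene of highest level per kb, was at 429 ± 49.4 CPM (SD, n = 7) in WT and 439 ± 37.5 CPM in Rik null (log2 fold change 0.03, SE 0.07, adjusted p = 0.771). Scn8a was at 244 ± 36.7 CPM in WT and 224 ± 23.3 CPM in Rik null (log2 fold change -0.13, SE 0.08, adjusted p = 0.254). Scn1a, Scn2a, Scn3a, Scn7a and Scn9a lie in a cluster on chromosome 2 and are similar in coding sequence, so reads may be shared among them. How the authors treated such reads is not given in the sources used here.

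The balance of these 4 pore genes was then described from levels per kb of gene length, as shares of their sum in each library and with no test. Scn2a made up 43.7 ± 1.74% of the sum in WT (SD, n = 7) and 42.3 ± 1.98% in Rik null, and Scn1a 29.8 ± 1.71% and 32.2 ± 2.58%. The share of Scn3a was 5.60% to 6.74% over WT libraries and 7.35% to 8.54% over Rik null libraries, with no overlap. The share of Scn8a moved the other way, from 20.3 ± 1.09% to 17.6 ± 1.40%, with overlapping libraries. In Rik null brains Scn3a thus took a larger part of the sum per kb. On average Scn1a also took a larger part, and Scn2a and Scn8a smaller parts, all with overlapping libraries. The summed CPM of the 4 genes, not divided by length, overlapped (863 to 1170 CPM over WT and 933 to 1101 CPM over Rik null libraries).

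**Figure D2:**
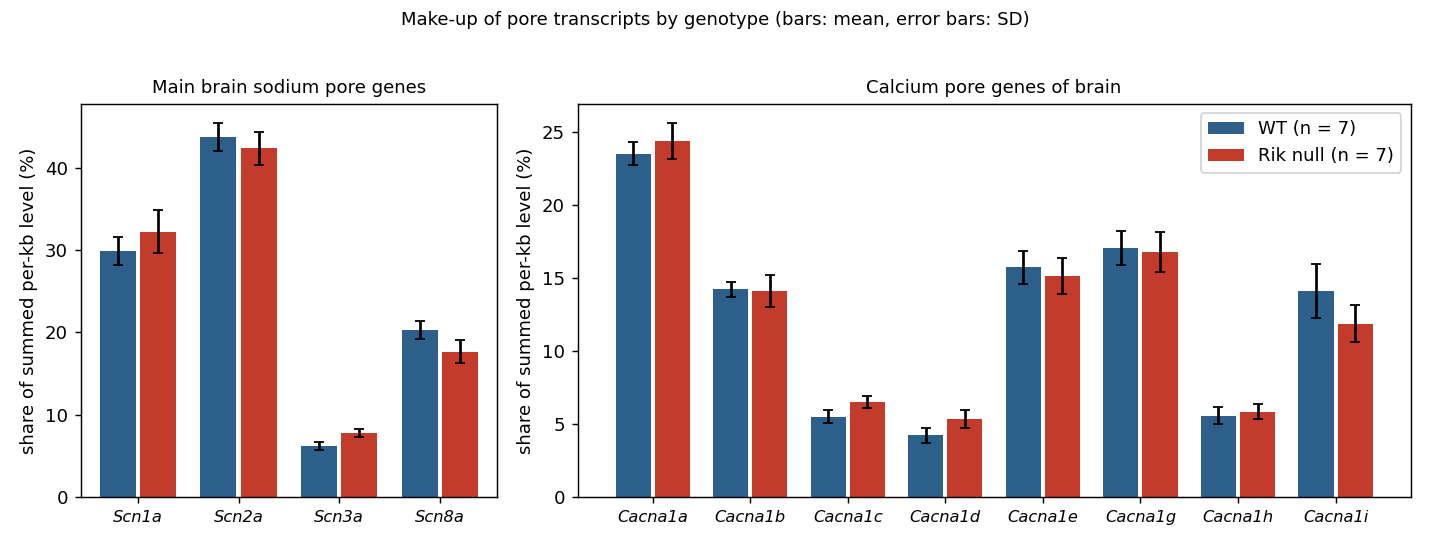
Share of each pore gene in the summed level per kb of the main brain sodium pore genes (left) and of the calcium pore genes of brain (right), in percent. Bars are means over 7 libraries of each genotype and error bars are SD. Scn3a has the only shares that do not overlap between genotypes (5.60% to 6.74% in WT, 7.35% to 8.54% in Rik null).

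Sodium pore genes known mainly from tissues outside the brain or from glia were examined next. Scn10a, the pore gene of a tetrodotoxin-resistant channel of pain-sensing neurons, passed the test and had the greatest fold change of all the channel genes. It (ENSMUSG00000034533, chromosome 9, 119608456 to 119719322, minus strand) had 0, 7, 0, 8, 7, 5 and 3 counts in WT replicates 1 to 7, and 84, 28, 29, 34, 65, 40 and 52 counts in Rik null replicates 1 to 7. Every Rik null library thus held at least 28 counts and no WT library more than 8.

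In CPM the lowest, median and highest levels of Scn10a were 0, 0.331 and 0.516 in WT and 1.59, 2.65 and 4.73 in Rik null. Rik null over WT, this was 3.27 on the log2 scale (SE 0.44, adjusted p = 9.96e-06), or 9.66-fold. The ratio of summed counts, 332 against 30 and corrected for library size, was 9.98 with an exact 95% interval of 6.86 to 15.0, which covers counting error only. The call was made in each of the 26 alternative settings, with log2 fold changes from 3.04 to 3.49. With WT at 0.516 CPM at most, the gene passed the low-count filter through its Rik null libraries alone. The settings with no filter beyond 1 count and with DESeq2 did not use that filter. The level remained low even in Rik null brains, at 0.346 ± 0.144 CPM per kb of gene length (SD, n = 7), beside 34.1 ± 2.92 for Scn2a.

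Markers of sensory ganglia and peripheral nerve, the usual home of Scn10a, were read in the same libraries. The summed level of the 7 markers was 41.0 to 50.6 CPM in WT and 30.7 to 41.1 CPM in Rik null. Of the 4 that could be tested, 2 fell (Prph and Pmp22), beside 17.9% of all genes. None rose in edgeR, also at an unadjusted p under 0.05. Prph and Pmp22 make up most of that sum and are expressed within the brain as well. Avil, an actin-binding protein of sensory neurons, had 5 to 18 counts in WT and 9 to 31 in Rik null (log2 fold change 0.69, adjusted p = 0.144), with 31 in Rik null replicate 1. Trpv1, the heat and capsaicin receptor of pain-sensing neurons, had 0 to 10 counts in WT and 0 to 19 in Rik null. Prdm12, a transcription factor that such neurons need, had 3 to 11 and 4 to 22 counts. The library with most Scn10a, Rik null replicate 1, held 0 counts of Trpv1. Scn10a therefore rose without a rise of the summed markers, while Avil, which had the highest log2 fold change of the 4 tested markers, did not pass.

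The 300 bases around the start of Scn10a (250 before and 50 after, RefSeq, GRCm38.p6, chr9:119718983-119719282, minus strand, written 5′ to 3′ along the gene) are shown because no other channel gene changed as much. Capitals mark CG dinucleotides, the sites at which mammalian DNA is methylated.

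Scn10a: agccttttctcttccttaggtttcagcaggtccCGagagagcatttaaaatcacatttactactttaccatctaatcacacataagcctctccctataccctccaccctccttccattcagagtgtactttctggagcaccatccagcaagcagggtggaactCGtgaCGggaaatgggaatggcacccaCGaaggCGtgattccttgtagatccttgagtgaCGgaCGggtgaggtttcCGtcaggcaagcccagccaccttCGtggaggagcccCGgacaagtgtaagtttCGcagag

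This window held 11 CG dinucleotides and was 51.7% G or C. Over 32851 promoter windows of the same length the medians were 7 and 52.7%, and 41.4% held at least 11. DNA methylation was not measured in these brains.

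Scn10a lies 34436 bp from Scn11a on chromosome 9, on the same strand, and Scn11a did not pass the test. Scn11a, the pore gene of another channel of pain-sensing neurons, was at 0.626 ± 0.211 CPM in WT (SD, n = 7) and 0.941 ± 0.437 CPM in Rik null (log2 fold change 0.58, SE 0.32, adjusted p = 0.175). Scn7a, whose channel senses extracellular sodium in glia, was at 6.46 ± 1.47 and 5.67 ± 1.12 CPM (log2 fold change -0.19, adjusted p = 0.383). Scn9a, a further pore gene of pain-sensing neurons, was at 9.43 ± 1.94 and 8.71 ± 1.83 CPM (log2 fold change -0.12, adjusted p = 0.592). The skeletal muscle pore gene Scn4a had 0 to 3 counts in any library. The difference in Scn10a was thus not detected, at this depth, in Scn11a or Scn9a, the other pore genes of sensory neurons. All 7 Rik null libraries lay above the WT median for Scn11a, and 3 of 7 did for Scn9a.

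**Figure D3:**
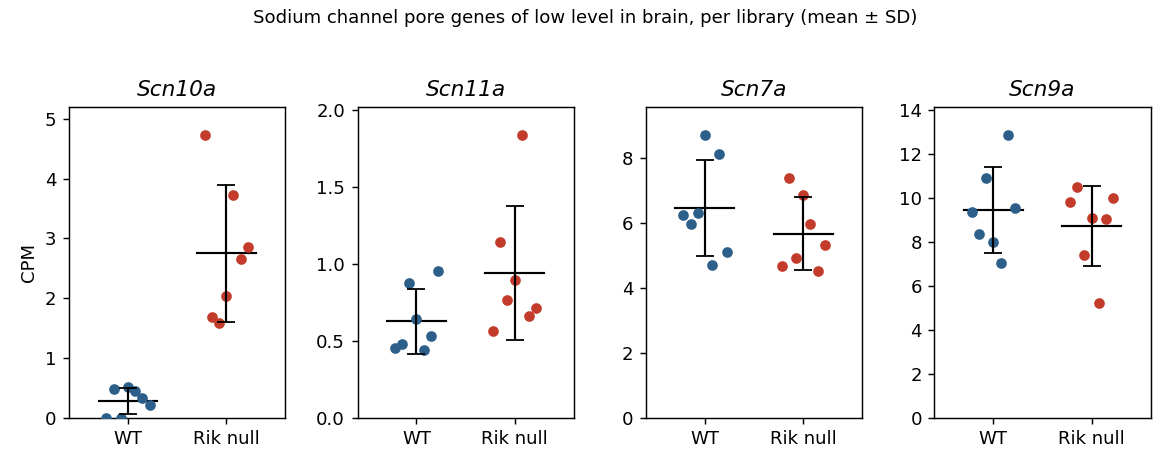
Level in CPM of Scn10a, Scn11a, Scn7a and Scn9a, sodium pore genes of low level in brain, with 1 point per library (replicates 1 to 7 from left in each genotype) and mean ± SD. For Scn10a the 7 WT libraries lie at 0 to 0.516 CPM and the 7 Rik null libraries at 1.59 to 4.73 CPM, and the other 3 genes overlap between genotypes.

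Of the sodium beta genes, which encode small adhesion-like proteins that set how many channels reach the surface and how fast they inactivate, Scn2b and Scn4b fell. The products of these 2 genes are the ones bound to the pore protein by a disulfide bond. Scn2b (ENSMUSG00000070304, chromosome 9, 45117782 to 45130070, plus strand) had a lowest, median and highest level of 275.0, 301.2 and 324.8 CPM in WT and 130.9, 176.3 and 207.4 CPM in Rik null. The genotypes were far from overlapping, and Rik null replicate 1 was the lowest of all libraries.

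Scn2b had a log2 change of -0.74 (SE 0.08, adjusted p = 1.17e-06), which is 1.66-fold lower, the smallest adjusted p among the channel genes. Without Rik null replicate 1 it was -0.66 (adjusted p = 2.45e-07). Scn4b (ENSMUSG00000046480, chromosome 9, 45138395 to 45154152, plus strand), known for resurgent sodium current in Purkinje cells and for its expression in striatum, had 176.8, 204.7 and 239.7 CPM in WT and 151.1, 168.9 and 188.3 CPM in Rik null. The genotypes overlapped, with 4 of 7 Rik null libraries below every WT library and none above the WT median. Its log2 fold change was -0.24 (SE 0.07, adjusted p = 0.00877), with adjusted p-values of 0.0642 in females alone and 0.159 in males alone.

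Markers of the cell types that hold much Scn4b fell in part. Of 6 Purkinje cell markers 3 fell (Calb1, Car8 and Itpr1), beside 17.9% of all genes. The summed level of the 6 was 1325 to 1578 CPM in WT and 962 to 1295 CPM in Rik null. Itpr1 was the largest part of that sum, at a mean of 777 CPM in WT and 642 CPM in Rik null. Pcp2, the marker most restricted to these cells, did not pass (-0.07 on the log2 scale, adjusted p = 0.753). Of 7 markers of striatal projection neurons 3 fell, again beside 17.9% of all genes, with summed levels of 541 to 810 and 579 to 779 CPM. Their part in the change of Scn4b was not tested. Scn3b, a further beta gene, was at 104 ± 4.51 CPM in WT (SD, n = 7) and 111 ± 7.22 CPM in Rik null and did not pass (log2 fold change 0.10, SE 0.05, adjusted p = 0.152). Per kb of gene length, Scn2b was at 63.9 ± 4.57 CPM in WT and came to 38.4 ± 5.99 in Rik null, close to the 34.5 ± 2.71 of Scn4b.

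Scn2b and Scn4b are neighbours, 8324 bp apart on the same strand, and their start windows are shown because both genes fell. The window of Scn2b is chr9:45117626-45117925 and that of Scn4b is chr9:45138374-45138673, both on the plus strand, from RefSeq on GRCm38.p6, with CG dinucleotides in capitals.

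Scn2b: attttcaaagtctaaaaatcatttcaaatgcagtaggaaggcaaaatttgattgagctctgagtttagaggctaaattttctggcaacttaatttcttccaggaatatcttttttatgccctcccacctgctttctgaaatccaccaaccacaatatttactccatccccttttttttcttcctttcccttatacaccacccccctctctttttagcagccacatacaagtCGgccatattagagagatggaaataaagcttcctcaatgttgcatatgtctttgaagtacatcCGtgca
Scn4b: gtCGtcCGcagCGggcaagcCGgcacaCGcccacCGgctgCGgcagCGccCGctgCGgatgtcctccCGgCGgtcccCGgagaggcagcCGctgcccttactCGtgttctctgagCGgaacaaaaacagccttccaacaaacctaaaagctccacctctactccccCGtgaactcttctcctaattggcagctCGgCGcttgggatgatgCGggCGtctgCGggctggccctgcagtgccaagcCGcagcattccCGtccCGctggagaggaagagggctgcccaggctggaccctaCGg

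The 2 windows differ in kind. That of Scn2b held 2 CG dinucleotides and was 38.3% G or C, and that of Scn4b held 26 and was 66.3% G or C. At least 26 were found in 16.9% of all windows and at least 2 in 85.9%.

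The calcium channel pore genes were nearly all without a call: of the 9 tested, Cacna1i alone passed. Cacna1a, Cacna1b and Cacna1e encode the P/Q-, N- and R-type pores that drive transmitter release. Cacna1a was at 170 ± 23.6 CPM in WT (SD, n = 7) and 172 ± 14.6 CPM in Rik null (log2 fold change 0.02, SE 0.08, adjusted p = 0.879). Cacna1b was at 83.1 ± 10.8 and 80.7 ± 9.82 CPM (log2 fold change -0.04, SE 0.09, adjusted p = 0.739), and Cacna1e at 234 ± 41.8 and 220 ± 27.2 CPM (log2 fold change -0.09, SE 0.10, adjusted p = 0.506).

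The L-type pores, which couple activity to transcription, came nearest to the threshold from above 0. Cacna1c was at 70.9 ± 12.1 CPM in WT and 81.6 ± 8.56 CPM in Rik null (log2 fold change 0.20, SE 0.09, adjusted p = 0.0954). Cacna1d was at 38.1 ± 9.04 and 46.6 ± 6.35 CPM (log2 fold change 0.29, SE 0.12, adjusted p = 0.0660), with all 7 Rik null libraries above the WT median. Neither passed here, and both did when WT replicate 6, the highest WT library for each, was left out (log2 fold change 0.28, adjusted p = 0.0105 for Cacna1c and 0.40, adjusted p = 0.00412 for Cacna1d), as also without Rik null replicate 1 (0.25, adjusted p = 0.0371 and 0.34, adjusted p = 0.0409) and, for Cacna1d, without Rik null replicate 4 (0.33, adjusted p = 0.0463). Cacna1c also passed with sex as a covariate (0.24, adjusted p = 0.0275), and Cacna1d with no filter beyond 1 count (0.29, adjusted p = 0.0371) and in females alone (0.57, adjusted p = 0.0119). Both passed with library size alone (adjusted p = 0.0355 for Cacna1c and 0.0325 for Cacna1d) and with the replicate number as a block (adjusted p = 0.0306 and 0.00699). Exons of Cacna1d overlap 589 bp of Chdh on the opposite strand, and whether counting used strand is not given in the sources used here. The skeletal muscle pore gene Cacna1s was at 0.876 ± 0.414 and 1.09 ± 0.287 CPM (log2 fold change 0.31, SE 0.31, adjusted p = 0.477). The retinal pore gene Cacna1f had 0 to 18 counts in any library.

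The T-type pores open near the resting potential and support burst firing. Cacna1i (ENSMUSG00000022416, chromosome 15, 80287238 to 80398279, plus strand), the T-type pore gene of the thalamic reticular nucleus, had 70.5, 80.7 and 89.7 CPM as lowest, median and highest in WT and 47.5, 68.7 and 80.7 CPM in Rik null. The genotypes overlapped, with 4 of 7 Rik null libraries below every WT library and replicate 1 the lowest. Its log2 fold change was -0.26 (SE 0.10, adjusted p = 0.0420). That call was lost when any of WT replicates 1, 2, 3, 4 and 6 or Rik null replicates 1, 2, 3 and 4 was left out, with a log2 fold change of -0.18 (adjusted p = 0.0816) without Rik null replicate 1 and a highest adjusted p of 0.101 without Rik null replicate 2. Cacna1g was at 101 ± 10.2 CPM in WT (SD, n = 7) and 97.6 ± 11.2 CPM in Rik null (log2 fold change -0.05, SE 0.08, adjusted p = 0.636), and Cacna1h at 31.7 ± 2.85 and 32.6 ± 1.89 CPM (log2 fold change 0.04, SE 0.07, adjusted p = 0.710).

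As shares of the summed level per kb of the 8 calcium pore genes of brain, given with no test, Cacna1a was the largest at 23.5 ± 0.794% in WT (SD, n = 7) and 24.4 ± 1.25% in Rik null. The 2 neuronal L-type genes together differed most upward, Cacna1c from 5.51 ± 0.422% to 6.50 ± 0.418% and Cacna1d from 4.23 ± 0.517% to 5.35 ± 0.608%, and Cacna1i went from 14.1 ± 1.86% to 11.9 ± 1.28%. The shares of all 8 overlapped between genotypes.

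The alpha2delta genes were the channel subunit class in which all members passed and in the same direction (lower, as were 17.9% of all genes tested). Their products sit outside the cell, raise the number of calcium channels at the surface and help to organise synapses, and those of Cacna2d1 and Cacna2d2 bind gabapentin and pregabalin. The summed level of the 4 genes had a lowest, median and highest value of 384, 413 and 470 CPM in WT and 287, 347 and 365 CPM in Rik null, without overlap. No other subunit class had summed levels that did not overlap, though no class was compared with another by a test. The sodium beta class came close, at 821 to 1019 CPM over WT and 679 to 824 CPM over Rik null libraries.

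Cacna2d3 (ENSMUSG00000021991, chromosome 14, 28904943 to 29721864, minus strand), known from pain, hearing and synapse formation, had 101.4, 107.1 and 114.1 CPM in WT and 67.6, 78.6 and 88.6 CPM in Rik null. WT libraries were tightly grouped (SD 3.94 CPM) and every Rik null library lay below them. This gave a log2 change of -0.42 (SE 0.06, adjusted p = 2.88e-05), which is 1.34-fold lower. Cacna2d2 (ENSMUSG00000010066, chromosome 9, 107399612 to 107529343, plus strand), abundant in Purkinje cells and mutated in the ataxic ducky mouse, had 62.5, 72.5 and 76.8 CPM in WT and 45.4, 55.2 and 65.0 CPM in Rik null. Here 6 of 7 Rik null libraries lay below every WT library, the exception being replicate 4. Cacna2d2 thus had a log2 change of -0.37 (SE 0.07, adjusted p = 5.80e-04), and exons of an antisense gene, Gm17141, overlap 82 bp of it.

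Cacna2d1 (ENSMUSG00000040118, chromosome 5, 15934691 to 16374511, plus strand), the alpha2delta gene of highest level per kb in these brains, had 199.9, 231.8 and 270.8 CPM in WT and 171.7, 205.5 and 222.9 CPM in Rik null. The genotypes overlapped, and no Rik null library reached the WT median. The log2 fold change was -0.22 (SE 0.07, adjusted p = 0.0133), with adjusted p-values of 0.180 in females alone, 0.0994 in males alone and 0.102 when scaled by library size alone.

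Cacna2d4 (ENSMUSG00000041460, chromosome 6, 119236526 to 119352407, plus strand), known mainly from the photoreceptor synapse of the retina, was low, at 4.84, 6.18 and 8.40 CPM in WT and 1.72, 2.99 and 3.65 CPM in Rik null. The highest Rik null library (replicate 6) was below the lowest WT library (replicate 4). The log2 fold change was -1.19 (SE 0.18, adjusted p = 3.92e-05), which is 2.28-fold lower, on 75 to 127 counts per library in WT and 30 to 66 in Rik null. The summed level of 5 retinal and pineal markers was 0.548 to 2.11 CPM in WT and 1.21 to 4.38 CPM in Rik null. Of these markers 0 could be tested and 3 were under 1 CPM in every library. A sum so near the floor in WT cannot show whether such tissue changed with Cacna2d4.

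The start windows of Cacna2d1, Cacna2d2 and Cacna2d3 are shown because the class fell together, and Cacna2d4 was not matched. RefSeq on GRCm38.p6 gives that of Cacna2d1 as chr5:15934441-15934740 on the plus strand, of Cacna2d2 as chr9:107399630-107399929 on the plus strand and of Cacna2d3 as chr14:29721815-29722114 on the minus strand, with CG dinucleotides in capitals as before.

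Cacna2d1: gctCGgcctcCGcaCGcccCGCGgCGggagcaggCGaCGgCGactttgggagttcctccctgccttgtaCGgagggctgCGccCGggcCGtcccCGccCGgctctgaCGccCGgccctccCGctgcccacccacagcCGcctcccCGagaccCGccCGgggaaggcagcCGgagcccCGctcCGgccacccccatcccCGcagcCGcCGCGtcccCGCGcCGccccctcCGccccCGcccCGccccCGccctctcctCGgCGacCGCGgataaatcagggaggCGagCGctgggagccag
Cacna2d2: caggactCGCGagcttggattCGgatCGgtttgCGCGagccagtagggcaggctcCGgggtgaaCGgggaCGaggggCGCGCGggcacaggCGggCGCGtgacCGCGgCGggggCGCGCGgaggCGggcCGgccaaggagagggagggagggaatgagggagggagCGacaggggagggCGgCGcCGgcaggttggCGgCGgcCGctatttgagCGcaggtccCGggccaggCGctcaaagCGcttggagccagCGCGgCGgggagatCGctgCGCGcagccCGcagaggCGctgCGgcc
Cacna2d3: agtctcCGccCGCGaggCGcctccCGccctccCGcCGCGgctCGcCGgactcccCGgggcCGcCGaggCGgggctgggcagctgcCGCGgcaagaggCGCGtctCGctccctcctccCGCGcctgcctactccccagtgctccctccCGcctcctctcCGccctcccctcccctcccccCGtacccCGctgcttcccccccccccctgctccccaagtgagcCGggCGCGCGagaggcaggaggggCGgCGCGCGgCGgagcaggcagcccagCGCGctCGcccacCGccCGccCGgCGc

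These 3 windows were alike in holding many CG dinucleotides, 42 in Cacna2d1, 43 in Cacna2d2 and 41 in Cacna2d3, with 80.0%, 75.7% and 81.3% G or C. At least 41 were found in 3.46% of the 32851 windows. Each also held the letters GGGCGG (the GC box, searched on both strands), which 35.7% of all windows and 16 of the 41 windows of the 30 channel genes matched in RefSeq contained. A match of letters says nothing of use, and channel genes without a call also had such windows, Cacna1d with 63 CG dinucleotides in 1 of its windows.

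**Figure D4:**
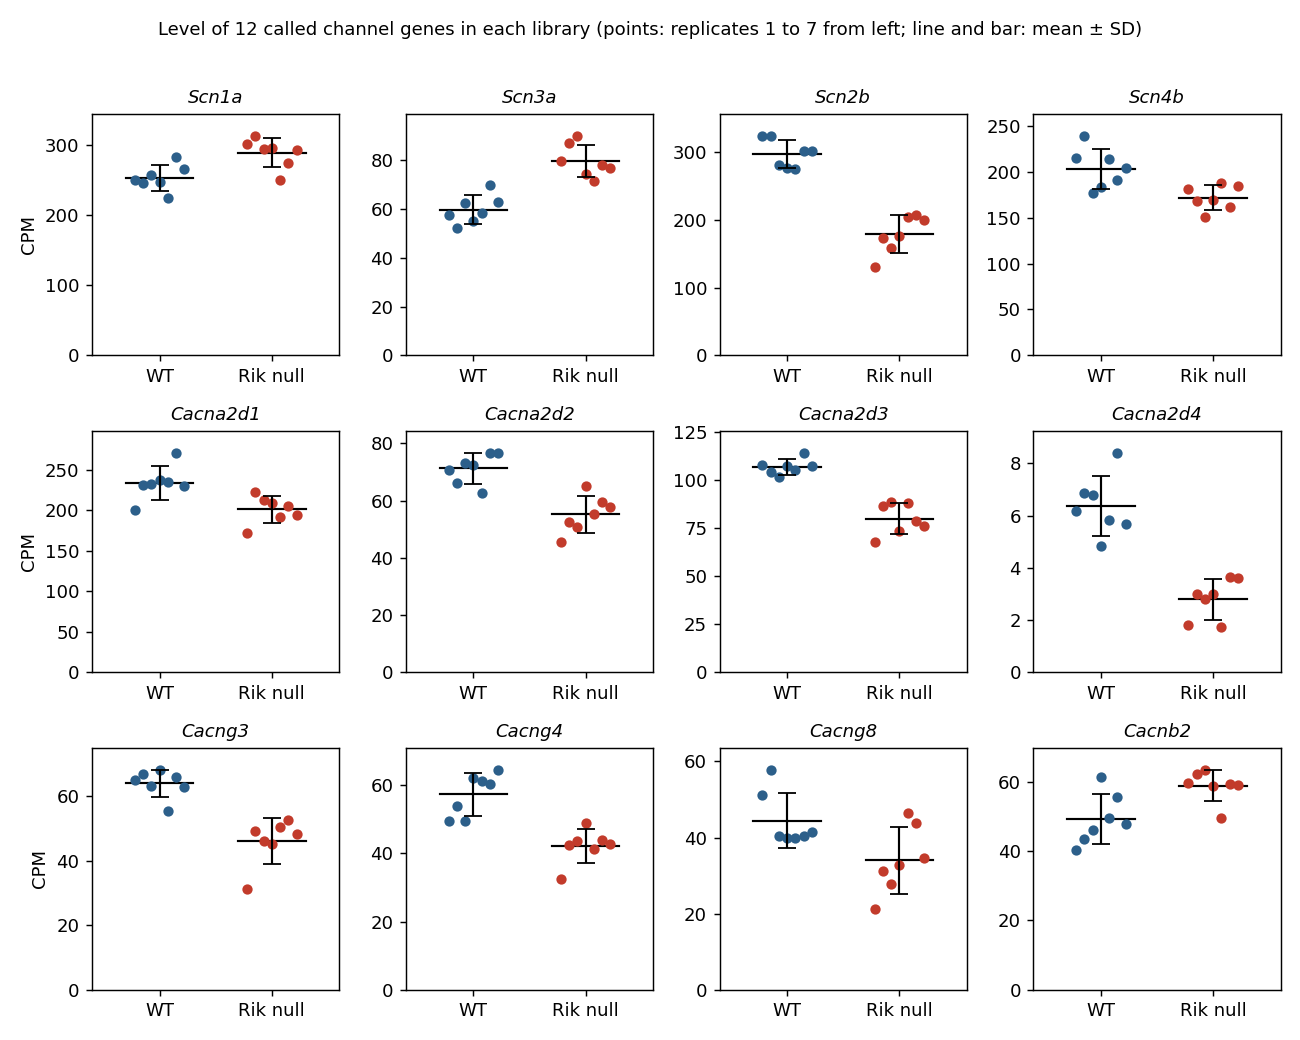
Level in CPM of called channel genes in each library, with replicates 1 to 7 from left in each genotype and mean ± SD (n = 7). The genotypes do not overlap for Scn3a, Scn2b, Cacna2d3, Cacna2d4, Cacng3 and Cacng4, and Rik null replicate 1 is the lowest library for Scn2b (130.9 CPM), Cacng3 (31.1 CPM) and several others.

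The calcium channel beta subunits bind the pore protein inside the cell and carry it to the surface. Cacnb2 (ENSMUSG00000057914, chromosome 2, 14603088 to 14987908, plus strand), also the main beta gene of the heart, rose. It had 40.3, 47.8 and 61.3 CPM in WT and 49.4, 59.2 and 63.4 CPM in Rik null. The genotypes overlapped: WT replicate 4, the library with pituitary RNA, was the highest WT library, and Rik null replicate 5 was the lowest Rik null library, while all 7 Rik null libraries lay above the WT median. The log2 fold change was 0.26 (SE 0.08, adjusted p = 0.0202), and 0.32 (adjusted p = 0.00420) without WT replicate 4. It did not pass in females alone (adjusted p = 0.199) or in males alone (adjusted p = 0.155). Exons of the opposite-strand genes Gm10849, Gm10848 and Gm13269 overlap 618, 111 and 239 bp of Cacnb2.

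The other 3 beta genes did not pass. Cacnb4, the gene of highest mean level per kb and the one mutated in the epileptic lethargic mouse, was at 313 ± 8.78 CPM in WT (SD, n = 7) and 332 ± 24.5 CPM in Rik null (log2 fold change 0.09, SE 0.05, adjusted p = 0.209). Cacnb1 was at 80.8 ± 5.88 and 81.0 ± 13.1 CPM, and Cacnb3 at 130 ± 16.3 and 132 ± 8.89 CPM, with log2 fold changes of 0.00269 and 0.02. A lower level of alpha2delta transcripts was thus measured beside calcium pore and beta transcripts of which most did not pass the test. Of all genes tested 34.4% passed, so a lack of calls is no result about those classes. The classes were not compared with each other by a test.

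The gamma family was examined last. Cacng2, Cacng3, Cacng4, Cacng5, Cacng7 and Cacng8 encode the transmembrane AMPA receptor regulatory proteins (TARPs). Most of these proteins bring AMPA receptors to the synapse and slow their closing. The 6 TARP genes were read together. Of these 6, 3 fell in Rik null brains, and the summed level was 428 to 474 CPM over WT and 392 to 441 CPM over Rik null libraries.

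Cacng3 (ENSMUSG00000066189, chromosome 7, 122670492 to 122769393, plus strand), a TARP gene of cortical neurons, had 55.5, 65.1 and 68.2 CPM in WT and 31.1, 48.4 and 52.7 CPM in Rik null. All Rik null libraries lay below all WT libraries, with Rik null replicate 1 far below the others. The log2 fold change was -0.47 (SE 0.09, adjusted p = 3.21e-04), and -0.39 (adjusted p = 5.33e-05) without that library. Cacng4 (ENSMUSG00000020723, chromosome 11, 107732357 to 107794557, minus strand), a TARP gene abundant during development, had 49.5, 60.3 and 64.5 CPM in WT and 32.5, 42.7 and 48.9 CPM in Rik null. The genotypes came close, at Rik null replicate 4 and WT replicate 3, but did not overlap. The log2 fold change was -0.44 (SE 0.08, adjusted p = 3.73e-04).

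Cacng8 (ENSMUSG00000053395, chromosome 7, 3390683 to 3415648, plus strand), the main TARP gene of hippocampus, had 39.9, 40.4 and 57.8 CPM in WT and 21.1, 32.9 and 46.6 CPM in Rik null. The genotypes overlapped, WT replicates 1 and 2 being the highest and Rik null replicates 5 and 6 lying above the WT median. The log2 fold change was -0.39 (SE 0.14, adjusted p = 0.0324). The call was lost when any of WT replicates 1 and 2 or Rik null replicates 1, 2, 3 and 4 was left out, with -0.29 (adjusted p = 0.0628) without Rik null replicate 1 and a highest adjusted p of 0.0794 without WT replicate 2.

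Cacng2, which encodes stargazin, the TARP whose loss causes ataxia and seizures in the stargazer mouse, was at 80.5 ± 6.45 CPM in WT (SD, n = 7) and 72.6 ± 5.57 CPM in Rik null (log2 fold change -0.15, SE 0.06, adjusted p = 0.0766). No Rik null library reached the WT median, and the gene passed without WT replicate 5 (log2 fold change -0.18, adjusted p = 0.0309). Cacng7, the most abundant TARP gene per kb, was at 181 ± 10.9 and 192 ± 14.2 CPM (log2 fold change 0.09, SE 0.06, adjusted p = 0.230). Cacng5 was at 27.9 ± 2.59 and 26.5 ± 4.84 CPM (log2 fold change -0.07, SE 0.10, adjusted p = 0.613). Cacng6, a true calcium channel subunit of muscle, was at 0.692 ± 0.346 and 0.838 ± 0.318 CPM (log2 fold change 0.28, SE 0.36, adjusted p = 0.575), and Cacng1, that of the skeletal muscle channel, had 0 to 12 counts in any library.

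The genotype difference was then asked to differ between labelled females and males, by a genotype-by-sex term in edgeR. No gene of the table passed after adjustment, 984 of 16882 (5.83%) had an unadjusted p under 0.05, and DESeq2 was not run for this term. Of the 37 channel genes 4 were under 0.05 unadjusted, namely Cacng5, Cacna1s, Cacna1d and Cacna1a, each with an adjusted p of 0.832 in edgeR. Cacng5 had a log2 fold change of -0.36 in females alone and 0.22 in males alone, and Cacna1d one of 0.57 in females alone and 0.06 in males alone.

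Partners of these channels were read from the same fit, from lists of genes whose products bind them or act beside them. Over all genes tested 16.5% rose and 17.9% fell (34.4% called) and the median log2 change was -0.000503. The lists were read beside these shares as descriptions, with no test of a list. Of 15 sodium channel partners tested, 1 rose and 8 fell (60.0% called), with a median log2 fold change of -0.24. Fgf13, an intracellular factor that binds the sodium pore and slows its recovery, was at 128 ± 14.2 CPM in WT (SD, n = 7) and 98.3 ± 4.58 CPM in Rik null, a log2 change of -0.38 (SE 0.06, adjusted p = 1.07e-04). Nalcn, the sodium leak channel that sets resting excitability, had a log2 change of -0.32 (SE 0.05, adjusted p = 1.07e-04). Nfasc, which encodes the neurofascins that cluster sodium channels at the initial segment and node and is also expressed by oligodendrocytes, one of -0.48 (SE 0.10, adjusted p = 7.19e-04), and Sptbn4, the spectrin that anchors the channels there, one of 0.28 (SE 0.06, adjusted p = 9.47e-04).

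Of 27 calcium channel partners tested, 3 rose and 10 fell (48.1% called, beside 34.4% of all genes), with a median log2 fold change of -0.08. Stac2, which slows inactivation of L-type channels, had a log2 change of -0.60 (SE 0.09, adjusted p = 1.96e-05).

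Of the 11 AMPA receptor subunits and auxiliaries other than TARPs, none rose and 6 fell at an adjusted p of 0.05 in edgeR (54.5% called, beside 34.4% of all genes), with a median log2 fold change of -0.19. None rose at an unadjusted p under 0.05 either, and DESeq2 also called none higher. Shisa9, an auxiliary subunit, went from 72.0 ± 7.27 to 53.0 ± 4.41 CPM (log2 fold change -0.44, SE 0.07, adjusted p = 7.97e-05), without overlap. The pore subunits Gria3 and Gria4 had log2 fold changes of -0.31 (SE 0.06, adjusted p = 4.15e-04) and -0.26 (SE 0.05, adjusted p = 7.44e-04), and Cnih2, a receptor escort, one of -0.26 (SE 0.08, adjusted p = 0.0158). Of 27 genes for calcium release, store-operated entry, removal and buffering, 4 rose and 6 fell, with a median of -0.04. That is 37.0% called, near the 34.4% of all genes, so the number of calls is no result about this list. Among them Calb2, the buffer calretinin, went from 146 ± 7.58 to 206 ± 17.4 CPM (log2 fold change 0.50, SE 0.06, adjusted p = 1.71e-06). The store-entry genes Orai2 and Stim1 rose by 0.37 (SE 0.07, adjusted p = 5.22e-04) and 0.25 (SE 0.06, adjusted p = 0.00206). Not all store-entry genes rose, and another of the list was called lower. Itpr1, the release channel abundant in Purkinje cells, fell by 0.28 (SE 0.06, adjusted p = 0.00170).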

How the data were processed

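Brain RNA of 14 mice was sequenced in 14 libraries, grouped by genotype, replicate number and sex as the sample labels give them. Library preparation, sequencing and the standard analysis were done commercially, according to the methods of the study. The submitters' processing notes name GRCm38, and the aligner, the counter, the annotation and the use of strand are not given in the sources read. What the authors deposited are raw counts of reads for each gene, and these alone were tested. The FPKM values deposited by the authors (counts per gene length and library) were not used, nor were the deposited signal columns (mean normalized counts per genotype) and the authors' own log2 fold changes and p-values, which hold their comparison of the genotypes. The deposited table also lists gene length and other columns, and gene length gave levels per kb. Of 52073 gene identifiers shared with GENCODE M21, 1485 had the same chromosome and start in the table, so all gene positions are from GENCODE M21 on GRCm38.

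Counts were fitted with edgeR 4.0.16 in R 4.3.3 (glmQLFit and glmQLFTest, genotype as the only term, TMM scaling, filterByExpr) over the whole table. The common biological coefficient of variation was 14.3%. SE is the size of a log2 fold change over the square root of its F. The procedure was checked on simulated counts. No 2 libraries were identical, and chi-square over its degrees of freedom was at least 4.47 for any pair within a genotype, so each library counted as 1 replicate. The labels name no batch, and p-values measure the spread between these animals. Alternatives were a DESeq2 1.42.0 Wald test, other scalings and filters, the robust option, each library left out, the replicate number as a block, a sex term, Rik null replicate 1 and WT replicate 4 left out together, and each sex alone. The channel genes and gene lists were chosen with earlier results of these data known. Genes named were all channel genes, up to 4 of smallest p in each partner list, Rik, and markers given beside a result, the last chosen after their values were seen. Some channel, partner and marker genes are not reported here by name, though they stay in the fit and in the counts. Promoter windows were matched by symbol for 30 of the 40 genes.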

Additional observations from a re-analysis of the deposited data

Results flagged for a closer look

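The 37 tested channel genes were screened for a single library far from the others of its genotype, in 74 groups of 7 libraries, of which chance alone flags about 1 in 20. Dixon's test for an extreme value, at its 95% critical value for 7 samples, found 5 such libraries. Rik null replicate 1 was the lowest Rik null library for Cacna1e, at 162.5 CPM with the other 6 at 213.1 to 244.2 CPM, and for Cacng3, at 31.1 CPM with the others at 45.2 to 52.7 CPM. It was the highest for Cacng7, at 223.0 CPM with the others at 183.1 to 195.8 CPM. Rik null replicate 5 was the lowest for Cacnb2, at 49.4 CPM with the others at 58.6 to 63.4 CPM. WT replicate 5 was the lowest WT library for Cacng3, at 55.5 CPM with the others at 63.0 to 68.2 CPM. Without the library in question Cacnb2 and Cacng3 stayed called, and Cacna1e and Cacng7 stayed without a call.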

How the results depend on the processing

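Each of the 14 called channel genes kept its direction in all 26 alternatives. Scn3a, Scn10a, Scn2b, Cacna2d2, Cacna2d3, Cacna2d4, Cacng3 and Cacng4 also kept their call in all 26, Cacna1i lost it in 14, Cacng8 in 10, Cacna2d1 in 3, Scn4b and Cacnb2 in 2 and Scn1a in 1. Each sex alone, with 7 libraries, gave fewer calls, 2874 in females (1282 higher, 1592 lower) and 2737 in males (1241 higher, 1496 lower), and 6 channel genes were lower in each sex and 2 higher in males. Library size alone moved the median over all genes to a log2 fold change of 0.07, raised the share of higher calls from 47.9% to 63.8%, and called 9 channel genes higher, adding Scn3b, Cacna1c, Cacna1d, Cacnb4 and Cacng7. DESeq2 gave 4 higher and 10 lower channel genes. The replicate numbers were not shown to pair the libraries. Deviations of same-numbered libraries correlated at -0.06 to 0.14, and 3 of 7 libraries correlated best with their own number. The labels give no litter, so which animals shared one is not known. With the replicate number as a block 5966 genes were called (2898 higher, 3068 lower), Cacna1c and Cacna1d were added and 2 sodium channel partners were higher.

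Sodium channel partners lower were 4 in females alone. Calcium channel partners higher were 5 with library size alone, 1 with no filter beyond 1 count, 0 in females alone, 1 in males alone and 1 to 4 with a library left out, and those lower were 5 in males alone. AMPA receptor genes higher were 1 with library size alone and 0 to 1 with a library left out, and those lower were 3 in males alone. Calcium release, entry and removal genes higher were 1 in females and 2 in males alone, and those lower were 3 with library size alone and 1 in females alone.

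The sign turned only for genes without a call. With a library left out, log2 fold changes ran from -0.014 to 0.075 for Scn2a, -0.015 to 0.080 for Cacna1a, -0.091 to 0.011 for Cacna1b, -0.038 to 0.071 for Cacnb1 and -0.011 to 0.068 for Cacnb3. In females alone they were 0.043 for Scn8a, 0.15 for Scn9a, 0.12 for Cacna1b, 0.067 for Cacna1e, 0.069 for Cacna1g, -0.0088 for Cacna1h and -0.023 for Cacnb3. In males alone they were -0.020 for Scn2a, 0.079 for Scn7a, -0.39 for Cacna1s, -0.13 for Cacna1a, -0.0082 for Cacnb1, -0.088 for Cacng6 and 0.22 for Cacng5. With library size alone they were 0.026 for Cacna1b and 0.015 for Cacna1g. Cacnb1 was at -0.0031 with no filter beyond 1 count and -0.0094 with the replicate block, and without Rik null replicate 1 and WT replicate 4 together Cacna1b was at 0.0046 and Cacnb3 at -0.0026. The cause was not tested. The interaction with sex was fitted once, since it already holds all 14 libraries and both factors. Counts of under 20 per library limit Scn4a, Cacna1f and Cacng1.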
